A study of Mus musculus with 6 samples.

Results

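Quadriceps RNA was examined for 9 genes that encode or control the transcription factors of muscle fibres: Mef2a, Mef2c, Mef2d, Myod1, Myog, Myf6, Six4, Hdac4 and Smyd1. Members were found by symbol in the platform annotation, every probe included. Of the 9 genes, 8 had an annotated probe, 16 probes in all, among 19057 genes with one. Mef2a had none and was not analysed here. A probe was tested when it was detected, at a detection p below 0.05, on at least 2 of the 6 arrays. This kept 12 of the 16 probes, with at least 1 for each of the 8 genes, among 17738 probes and 10196 genes.

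Both groups were NOD-SCID mice, which lack functional T and B lymphocytes, carrying human renal cancer cells under the skin for 22 days. The RXF393 line is described in the labels as cachectic, meaning that it is linked to loss of muscle and fat, and the SKRC39 line as not cachectic. Mice were fed freely, no group without a tumour was among the arrays, and the labels give no age. Each line is a single tumour line, so a difference belongs to the pair of lines. On 4 of the 6 arrays every label gives 1 line, and these are SKRC39 replicates 1 and 2 and RXF393 replicates 2 and 3, numbered by title. The other arrays have conflicting labels: RXF_1 has SKRC39 in its source name and characteristics, and SKR_3 has RXF393 there. Both are shown apart and enter no group. The design text speaks of 3 mice without saying whether per line, and the 6 arrays, 1 RNA sample each, were read as separate mice.

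The arrays most alike carried different titles and the same line in the characteristics. Over the tested probes, log2 intensities correlated at 0.980 between SKRC39 replicate 1 and the array titled RXF_1, and at 0.985 between RXF393 replicate 3 and the array titled SKR_3. The other pairs of arrays ranged from 0.780 to 0.955, and the 2 RXF393 arrays stood at 0.896. RXF393 replicate 2 was closer to SKRC39 replicates 1 and 2 (0.926 and 0.937) and to RXF_1 (0.936) than to RXF393 replicate 3 or to SKR_3 (0.902). The share of probes detected was 37.7% and 33.7% on the SKRC39 arrays, 33.7% and 30.9% on the RXF393 arrays, 36.5% on RXF_1 and 30.3% on SKR_3. It was thus lowest on the arrays where Mef2c, below, was lowest, and its part in the results was not tested. Muscle fibre RNA was present by its markers, since all 9 fibre genes with an annotated probe were tested. Their summed signal ranged from 394500 to 535488 intensity units over the 6 arrays. Markers of other cell types, given below, were detected as well.

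As background, MEF2 proteins are MADS-box factors that bind A/T-rich sites in the control regions of muscle genes. MyoD, myogenin and MRF4, the products of Myod1, Myog and Myf6, are basic helix-loop-helix factors that bind E-boxes, and proteins of the SIX4 family are homeodomain factors that bind MEF3 sites with EYA cofactors. Class IIa histone deacetylases such as HDAC4 hold MEF2 targets silent until calcium-dependent kinases move them out of the nucleus. SMYD1 is a muscle methyltransferase whose gene is a known MEF2C target in mouse heart and muscle.

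Promoter windows are shown for Mef2c, the member that differed between the lines, and for Myog, whose promoter is a textbook case of regulation by this family. Each holds 250 bases before and 50 after a RefSeq transcription start (GRCm38.p6), printed 5′ to 3′ on the gene's strand. Capitals mark an E-box (CANNTG) or a MEF3 site (TCAGGTTTC), searched on both strands with no overlap between the marked sites.

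Mef2c, upstream start, chr13:83503784-83504083, plus strand: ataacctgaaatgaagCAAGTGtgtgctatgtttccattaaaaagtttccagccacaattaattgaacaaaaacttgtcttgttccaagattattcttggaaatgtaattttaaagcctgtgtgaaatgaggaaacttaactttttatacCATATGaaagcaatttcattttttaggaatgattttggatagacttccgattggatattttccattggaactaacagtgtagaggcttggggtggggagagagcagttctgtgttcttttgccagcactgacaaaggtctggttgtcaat
Mef2c, middle start, chr13:83523406-83523705, plus strand: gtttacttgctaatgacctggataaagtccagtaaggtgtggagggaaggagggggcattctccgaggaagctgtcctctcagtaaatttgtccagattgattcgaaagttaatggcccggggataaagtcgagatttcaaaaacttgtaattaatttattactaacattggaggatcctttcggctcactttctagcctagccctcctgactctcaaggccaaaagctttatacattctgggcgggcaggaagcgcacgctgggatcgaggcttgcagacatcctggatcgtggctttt
Mef2c, downstream start, chr13:83573357-83573656, plus strand: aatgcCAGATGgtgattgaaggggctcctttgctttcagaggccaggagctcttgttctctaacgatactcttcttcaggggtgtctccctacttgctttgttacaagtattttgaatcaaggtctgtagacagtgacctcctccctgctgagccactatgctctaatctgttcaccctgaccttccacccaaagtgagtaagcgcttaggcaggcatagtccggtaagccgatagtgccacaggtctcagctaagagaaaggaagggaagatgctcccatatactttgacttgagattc
Myog, chr1:134289754-134290053, plus strand: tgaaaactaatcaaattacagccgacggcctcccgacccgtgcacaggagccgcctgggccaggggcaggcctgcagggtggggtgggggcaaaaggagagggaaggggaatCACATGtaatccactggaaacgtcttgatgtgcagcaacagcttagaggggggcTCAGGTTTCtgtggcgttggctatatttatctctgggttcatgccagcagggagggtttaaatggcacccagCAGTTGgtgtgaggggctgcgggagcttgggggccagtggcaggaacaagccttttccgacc

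The upstream Mef2c window holds 2 E-boxes, the middle one 0 and the downstream one 1. The Myog window holds 2 E-boxes, beginning at -138 and -12 from the start site, and 1 MEF3 site beginning at -84. Over the 32851 windows of the table, 72.3% hold an E-box and 0.429% the MEF3 letters. A strict MEF2 consensus was searched too: C or T, then TA, 4 letters of A or T, TA, and A or G. It matched in 3.19% of windows, but in none of these 4. The stretch ctatatttat of the Myog window differs from these letters only at its last base. No match to the strict letters therefore does not mean that a window lacks a MEF2 site. Among the other members, 1 of the 2 Six4 windows holds a MEF3 match and the Mef2a window a MEF2 match. The Mef2d, Hdac4 and Smyd1 windows match none of the 3 motifs, and Myod1 and Myf6 are not shown. A match is a description of letters and not of binding.

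With no tumour-free group to tell a fall from a rise, Mef2c read lower in muscle of RXF393-bearing than of SKRC39-bearing mice. Its main probe, the brightest of 5 (ILMN_2732465), read 26501 and 24944 intensity units on SKRC39 replicates 1 and 2 before normalization. It read 4384 and 2662 on RXF393 replicates 2 and 3. After normalization the log2 intensities were 14.66 and 14.86 with SKRC39, and 12.10 and 11.22 with RXF393. Both RXF393 arrays lay below both SKRC39 arrays by far more than either line's own spread. The means were 11.66 ± 0.62 (SD, n = 2) and 14.76 ± 0.15 (SD, n = 2), a log2 change of -3.10 ± 0.38 (SE; 95% confidence interval -3.99 to -2.21), or 8.56-fold lower (adjusted p = 0.0430, limma). The array titled RXF_1 stood at 14.57, just under the SKRC39 arrays, and the array titled SKR_3 at 10.32, under both RXF393 arrays.

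Probes ILMN_2887992 and ILMN_1214950, assigned to the same Mef2c transcript record, also read lower. ILMN_2887992 stood at 12.94 and 13.76 on SKRC39 replicates 1 and 2, and at 10.42 and 9.91 on RXF393 replicates 2 and 3. Its log2 change of -3.18 ± 0.44 narrowly missed the threshold (adjusted p = 0.0559, limma). ILMN_1214950 stood at 13.91 and 13.84 with SKRC39, and at 11.19 and 8.66 with RXF393. It had the largest Mef2c change, -3.95 ± 0.76, and did not pass (adjusted p = 0.122, limma), with the RXF393 arrays far apart. With 1 array left out it ran from -5.22 (without RXF393 replicate 2) to -2.68 (without RXF393 replicate 3), and it passed in 7 of 17 alternatives. The array titled RXF_1 stood at 13.16 and 13.27 on these 2 probes and the array titled SKR_3 at 8.76 and 7.70, so on every bright Mef2c probe SKR_3 was the lowest array. A probe of the same record, ILMN_2520812, was detected on 1 SKRC39 array and neither RXF393 array and stood near background, at -0.59 (adjusted p = 0.523, limma). The last, ILMN_1220270, taken from a cDNA clone, was detected on none of the 6 arrays.

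**Figure D1:**
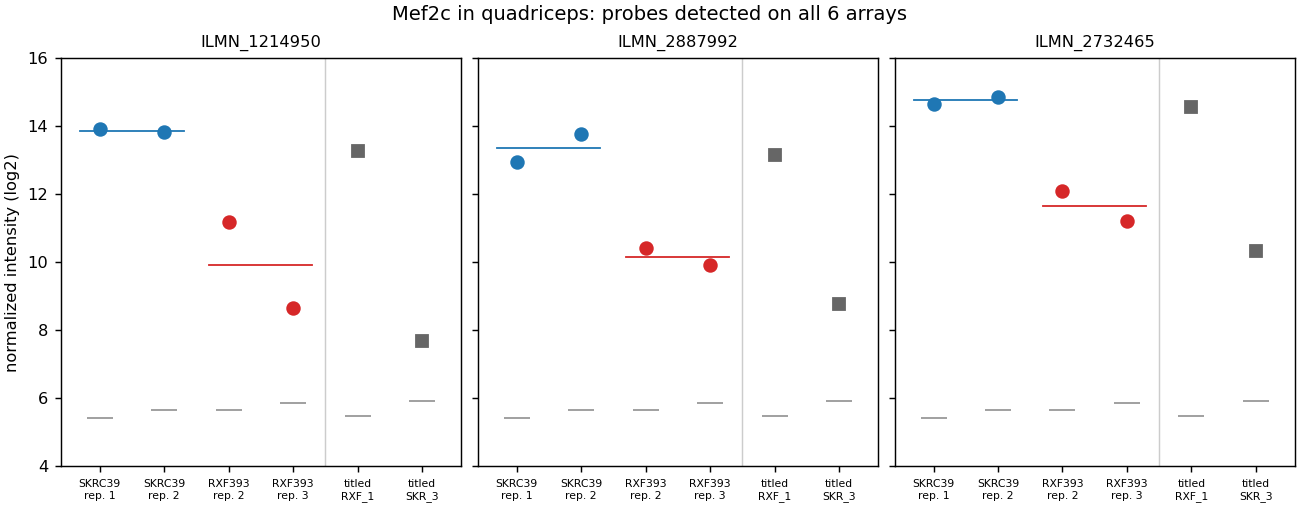
Normalized log2 intensity (vertical axis) of the 3 Mef2c probes detected on all 6 arrays. Blue circles are SKRC39, red circles RXF393, grey squares the arrays with conflicting labels, coloured lines the group means of 2 arrays, and grey dashes the lowest detected signal of each array. On ILMN_2732465 the SKRC39 arrays sit at 14.66 and 14.86 and the RXF393 arrays at 12.10 and 11.22, well above the dashes.

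Of the 12 tested member probes, 1 was lower and 0 were higher past the threshold of 0.05 in limma's moderated test adjusted over all 17738 probes. Over all tested probes, 0.113% were lower and 0.135% higher. The members were chosen with earlier results of these data known, so the member counts and medians given here are descriptions and not independent support. By gene, 36 of 10196 passed in either direction, 0.353%. At an unadjusted p under 0.05 there were 3 member probes, all of them Mef2c and all lower, against 12.8% of all tested probes. These probes share 1 transcript record, so by gene they count as 1 of the 8 tested members. That is near the 14.8% of all tested genes under the same unadjusted threshold. The 2 groups did not overlap for 7 of the 12 member probes, beside 46.3% of all tested probes, so that share is not a result about the members. The median log2 change was -0.60 over the 12 probes, several of them Mef2c, and 0.05 over all tested probes. With each gene read by its main probe, it was -0.19 over the 8 tested members and 0.07 over all tested genes.

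The main Mef2c probe kept its direction in all 17 alternatives and its call in 12, the call being lost with another background correction and an offset of 50 together (adjusted p = 0.0529), with the authors' normalized table (0.0505), with median scaling (0.152), without the intensity trend (0.205) and with arrays grouped by title (1.00; log2 change -0.65), all limma. In 1 simulated draw of this design the same fit made more false calls than its threshold allows. A single draw does not fix that rate, but a call this near to the threshold may be weaker than its p-value reads. With 1 array left out at a time its change ran from -3.54 to -2.66 and it passed each time (adjusted p = 0.00519 to 0.0440, limma). With all 6 arrays grouped by characteristics, the 3 bright probes passed, with changes from -4.49 to -3.48.

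**Figure D2:**
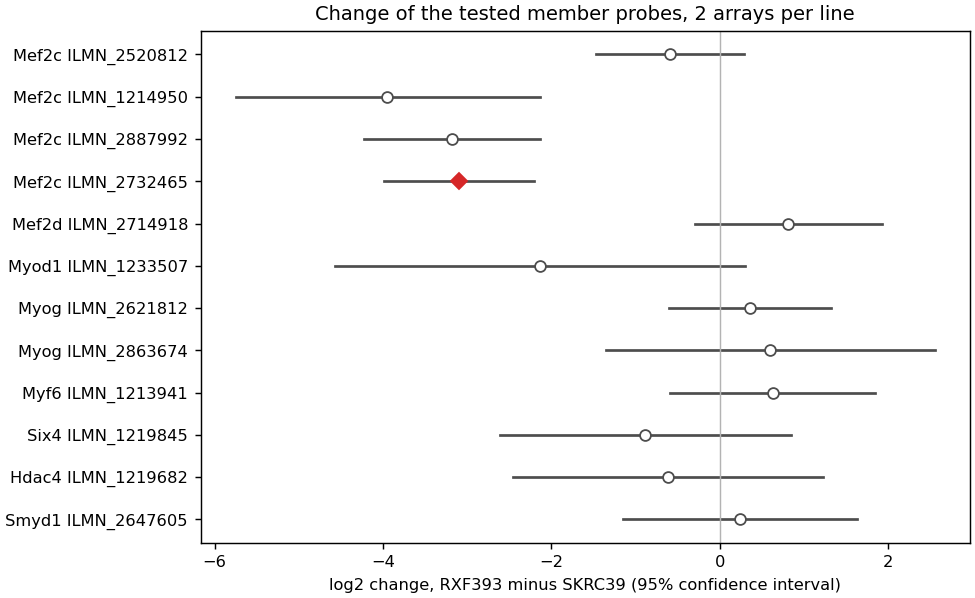
Log2 change of RXF393 against SKRC39 (horizontal axis) for the 12 tested member probes, 2 arrays per line, with 95% confidence intervals. The red diamond is the Mef2c probe past the threshold, at -3.10, and open circles did not pass. The intervals of the 3 bright Mef2c probes lie below 0 and those of all other probes reach across it.

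Other cell types also make MEF2C, endothelial cells among them, so marker genes were read beside it. In whole muscle, fewer cells of a type and less RNA per cell cannot be told apart. Of 10 endothelial markers 9 were tested and 0 passed, Kdr being undetected on at least 5 of the 6 arrays, with a median log2 change of 0.06. Their summed signal was 15881 and 18135 intensity units on the SKRC39 arrays, and 21744 and 18585 on the RXF393 arrays. Macrophage markers summed to 2046 and 3871 with SKRC39 and to 2220 and 2802 with RXF393. Fibroblast markers had a negative change in all 8 tested of 9, at a median of -1.69, with sums of 29028 and 32398 against 19116 and 24479. Neutrophil markers had a positive change in all 4 tested of 9, 1 of them past the threshold, with sums of 225 and 572 against 14103 and 10483, while Elane, Mpo, Camp and Ngp were each detected on fewer than 2 of the 6 arrays. Fibre markers summed to 506022 and 521270 against 461887 and 421851. No gene of the other lists passed, their medians being 0.06 for satellite cells, -0.42 for smooth muscle, -0.42 for B lymphocytes (1 gene), -0.56 for adipocytes, 1.66 for erythroid cells and 0.28 for Schwann cells. The part of these cells in the Mef2c change was not tested.

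Mef2d encodes a MEF2 protein made in many tissues. Its only probe, ILMN_2714918, lay close to background and was detected on 1 SKRC39 array and both RXF393 arrays. It stood at 5.57 and 5.20 with SKRC39 and at 5.89 and 6.50 with RXF393, with 5.90 on the array titled RXF_1 and 7.08 on SKR_3. The RXF393 values were the higher ones and did not overlap, but the change of 0.81 ± 0.47 did not pass (adjusted p = 0.497, limma). The means were at least 1.51-fold apart, counting an undetected array at the lowest detected signal.

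Myod1, the bHLH factor that starts myogenic commitment and is kept at low levels in adult fast fibres, was detected on 1 of the 4 arrays compared. It stood at 8.86 on SKRC39 replicate 1 and 5.51 on SKRC39 replicate 2, and at 5.28 and 4.83 on RXF393 replicates 2 and 3, with 7.60 on the array titled RXF_1 and 4.74 on SKR_3. The probe met the filter only through SKRC39 replicate 1 and the array titled RXF_1. The groups did not overlap, yet the nearest values, 5.51 and 5.28, were both undetected and 1 SKRC39 array carried the difference. The means were at least 2.70-fold apart, counting the undetected RXF393 arrays at the lowest detected signal. The change of -2.13 ± 1.03 did not pass (adjusted p = 0.435, limma). Without SKRC39 replicate 1 it was -0.45 (adjusted p = 1.00, limma), and without SKRC39 replicate 2, which did not detect the probe, it was -3.81 (adjusted p = 0.0559, limma).

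Myog encodes myogenin, the bHLH factor of terminal differentiation, which denervated fibres make again. Its brighter probe, ILMN_2863674, stood at 7.72 and 6.40 with SKRC39 and at 8.40 and 6.92 with RXF393. The arrays with conflicting labels read 6.95 (RXF_1) and 6.85 (SKR_3). The groups overlapped and the change of 0.60 ± 0.83 did not pass (adjusted p = 0.764, limma). It was -0.14 without RXF393 replicate 2 and -0.06 without SKRC39 replicate 2. The second Myog probe, ILMN_2621812, was detected on 1 RXF393 array and no SKRC39 array, at 0.36 ± 0.41 (adjusted p = 0.704, limma).

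Myf6, which encodes MRF4, the bHLH factor of mature fibres, was bright on every array. It stood at 12.74 and 12.83 with SKRC39, at 14.20 on RXF393 replicate 2 and at 12.63 on RXF393 replicate 3. The arrays titled RXF_1 and SKR_3 read 12.94 and 12.71. All arrays but RXF393 replicate 2 therefore lay between 12.63 and 12.94. The change of 0.63 ± 0.51 did not pass (adjusted p = 0.602, limma) and was -0.16 without that array.

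Six4 encodes a homeodomain factor that binds MEF3 sites in muscle genes. Its detected probe, ILMN_1219845, stood at 6.64 and 6.61 with SKRC39, at 6.73 on RXF393 replicate 2, and undetected at 4.75 on RXF393 replicate 3. The array titled RXF_1 stood at 7.10, and the array titled SKR_3, at 5.08, was undetected as well. The change of -0.89 ± 0.73 did not pass (adjusted p = 0.602, limma), and it was 0.10 without RXF393 replicate 3. The second Six4 probe, ILMN_2434136, was detected on none of the 6 arrays.

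Hdac4, the class IIa deacetylase that represses MEF2, varied within both lines. Its detected probe, ILMN_1219682, stood at 11.24 and 9.83 on SKRC39 replicates 1 and 2, and at 10.87 and 8.96 on RXF393 replicates 2 and 3. The arrays titled RXF_1 and SKR_3 read 10.85 and 8.94. The groups overlapped and the change of -0.62 ± 0.78 did not pass (adjusted p = 0.739, limma). It was 0.09 without SKRC39 replicate 1 and 0.34 without RXF393 replicate 3. A second Hdac4 probe, ILMN_2524005, was detected on none of the 6 arrays.

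Smyd1, the muscle methyltransferase gene, was read near background by its detected probe, ILMN_2647605. It stood at 5.85 and 6.00 with SKRC39, at 5.53 on RXF393 replicate 2, where it was not detected, and at 6.79 on RXF393 replicate 3. The arrays titled RXF_1 and SKR_3 read 5.92 and 5.97. The change of 0.24 ± 0.59 did not pass (adjusted p = 0.874, limma), and it was -0.40 without RXF393 replicate 3. Probe ILMN_2577549, from a cDNA clone, was detected on none of the 6 arrays.

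**Figure D3:**
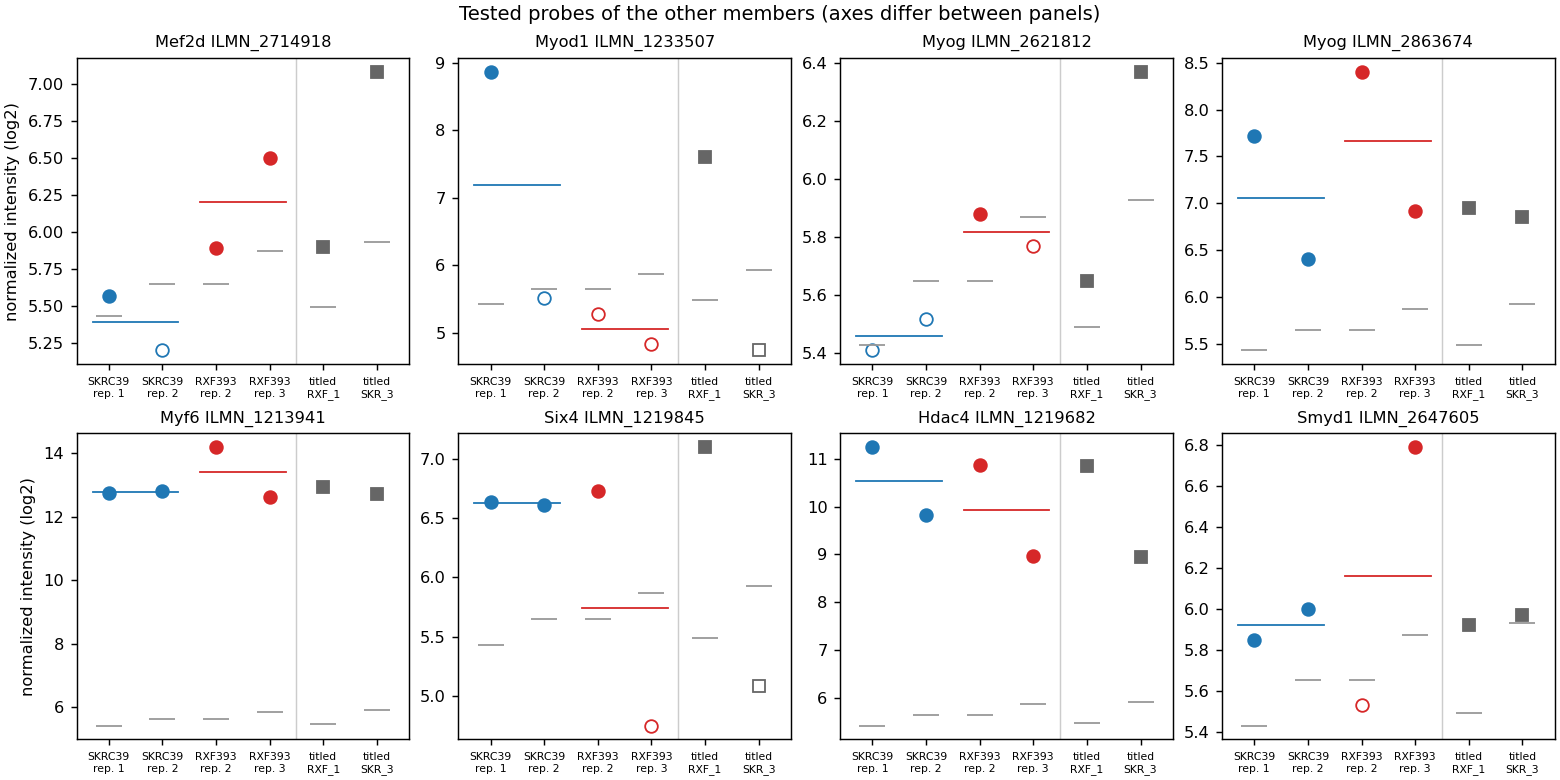
Normalized log2 intensity (vertical axes, which differ between panels) of the 8 tested probes of the other members. Blue circles are SKRC39, red circles RXF393, grey squares the arrays with conflicting labels, coloured lines the group means, and grey dashes the lowest detected signal of each array. Open symbols were not detected. Myf6 stands apart only on RXF393 replicate 2, at 14.20, and Myod1 is highest on SKRC39 replicate 1, at 8.86.

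**Figure D4:**
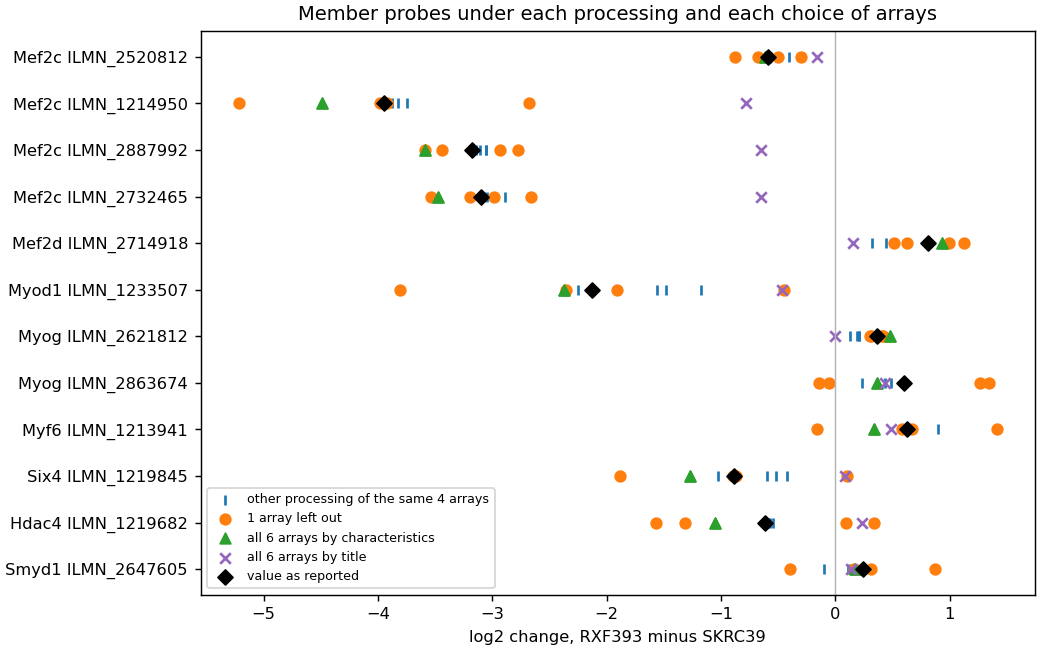
Log2 change of RXF393 against SKRC39 (horizontal axis) for each tested member probe as reported (black diamonds), under other processing of the same 4 arrays (blue ticks), with 1 array left out (orange circles), and with all 6 arrays grouped by characteristics (green triangles) or by title (purple crosses). The main Mef2c probe stays between -3.54 and -0.65, its highest value being that by title, and Myog, Myf6, Six4, Hdac4 and Smyd1 have values on both sides of 0.

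The genes whose profile over the 6 arrays lay nearest to that of the main Mef2c probe were Gdf1, Kbtbd13, Hspb2, Fn3k and Smtn. Nearness was the Euclidean distance between log2 values centred on each probe's mean, over 9894 named genes. The distances ran from 0.53 to 0.62 and Pearson's r over the 6 arrays from 0.990 to 0.998. These arrays share 1 normalization and include the 4 compared, so both r and the changes of these genes follow from the choice and are descriptions, with no test. Kbtbd13, a BTB-Kelch protein mutated in nemaline myopathy, stood at 12.38 and 12.61 with SKRC39 and at 10.08 and 9.13 with RXF393 (log2 change -2.89 ± 0.48). Hspb2, a small heat shock protein of muscle, stood at -2.59 ± 0.48. Fn3k, fructosamine kinase, stood at -2.77 and Gdf1, whose transcript also encodes the ceramide synthase Cers1, at -3.22. Smtn, the cytoskeletal protein smoothelin, stood at -3.35 ± 0.44. Its other probes stood at -3.16 and, near background, at 0.33.

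Partners, regulators and described targets of the family were read by the main tested probe of each gene. None of the 6 lists held a gene past the threshold in limma's test, where 0.353% of all tested genes passed. The median log2 change of all tested genes was 0.07, and the groups did not overlap for 48.7% of them. Of all tested genes 53.5% had a positive change and 14.8% an unadjusted p under 0.05, the shares to set beside the counts of each list. Of 24 MEF2 co-regulators and class IIa deacetylase signalling genes, 16 were tested, 12 with a negative change and 3 at an unadjusted p under 0.05. Their median was -0.57 and the groups did not overlap for 11. Camk2a, a calcium/calmodulin-dependent kinase subunit, stood at 12.78 and 11.93 with SKRC39 and at 10.72 and 8.39 with RXF393 (-2.79 ± 0.78, adjusted p = 0.236, limma). Camk2b, another subunit of that kinase, stood at -1.44 ± 0.49 (adjusted p = 0.307, limma). Rcan1, a feedback inhibitor of calcineurin, stood at 1.20 ± 0.38 (adjusted p = 0.285, limma) with both RXF393 arrays above both SKRC39 arrays.

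Of 15 genes described as MEF2 targets in muscle, 13 were tested, 2 of them at an unadjusted p under 0.05. Their median was -0.45 and the groups did not overlap for 7. Mb, which encodes myoglobin, stood at 15.75 and 15.90 with SKRC39 and at 14.92 and 15.17 with RXF393 (-0.78 ± 0.22, adjusted p = 0.240, limma). Its second probe disagreed in size, at -4.29 ± 1.60, with 13.14 and 7.38 on RXF393 replicates 2 and 3. Lmod3, the thin-filament protein leiomodin 3, stood at -1.08 ± 0.41 and Hrc, a calcium-binding protein of the sarcoplasmic reticulum, at -0.57 ± 0.26, neither passing. Of the 13, 2 lay within 20% of the highest signal on all 4 arrays, where a change can be hidden.

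The 16 genes of the denervation response run by HDAC4 and myogenin had 12 tested members, 10 with a positive change, a median of 0.75, 8 without overlap and 4 at an unadjusted p under 0.05. Musk, the receptor kinase that organises the neuromuscular junction, was detected on 1 SKRC39 array and stood at 5.71 and 5.01 with SKRC39 and at 7.27 and 8.50 with RXF393, means at least 4.61-fold apart (adjusted p = 0.230, limma). A second Musk probe stood at 0.29. Gdf5, a BMP ligand that denervated muscle makes, was detected on both RXF393 arrays and neither SKRC39 array, with means at least 2.33-fold apart (adjusted p = 0.316, limma), and a second probe stood at -0.08. Gdf5 and Runx1, both in the counts above, met the detection filter only through RXF393 arrays and the array titled SKR_3. Their positive direction and lack of overlap are therefore not separate from the filter. Chrne, the adult epsilon subunit of the acetylcholine receptor, stood at a mean of 10.02 ± 0.03 (SD, n = 2) with SKRC39 and at 7.79 ± 0.09 (SD, n = 2) with RXF393 (-2.23 ± 0.56, adjusted p = 0.198, limma).

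Of 8 partner genes, from the SIX4, EYA and DACH families, 5 were tested, with a median of -0.18 and 3 without overlap. Eya2, Dach1 and Dach2 had a probe but were not tested. Eya4, Six5 and Six2 stood at -0.59, 0.54 and -0.47, none passing (adjusted p = 0.690 to 0.735, limma). A second Eya4 probe, detected on all 6 arrays, stood at 0.08, and a second Six5 probe at 0.13.

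Of 21 symbols listed for other myogenic bHLH factors, E proteins, inhibitors and fusion genes, 11 were tested, with a median of -0.17 and 3 without overlap. The main probes of the satellite cell factors Pax7 and Myf5 were detected on none of the 6 arrays. Id1, which blocks bHLH factors by binding their E protein partners, stood at 9.56 and 9.68 with SKRC39 and at 10.19 and 11.25 with RXF393 (1.10 ± 0.54, adjusted p = 0.442, limma). Bhlhe40 stood at 0.78 ± 0.44 and Id3 at 0.81 ± 0.76. Of 10 SMYD family genes, partners and myosin chaperones, 7 were tested, with a median of -0.03 and 2 without overlap. Naca, whose muscle form skNAC binds SMYD1, stood at 13.34 and 12.84 with SKRC39 and at 13.90 and 14.12 with RXF393 (0.92 ± 0.31, adjusted p = 0.306, limma). Its other probes, near background, stood at -0.33 and -0.68. Whether any of these probes read the skNAC form was not tested. Stip1, an HSP90 co-chaperone, was not detected on RXF393 replicate 3 and had means at least 5.89-fold apart, with groups that overlapped (adjusted p = 0.459, limma). Smyd2 stood at -1.30 ± 0.84, and its second probe at -0.46.

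**Figure D5:**
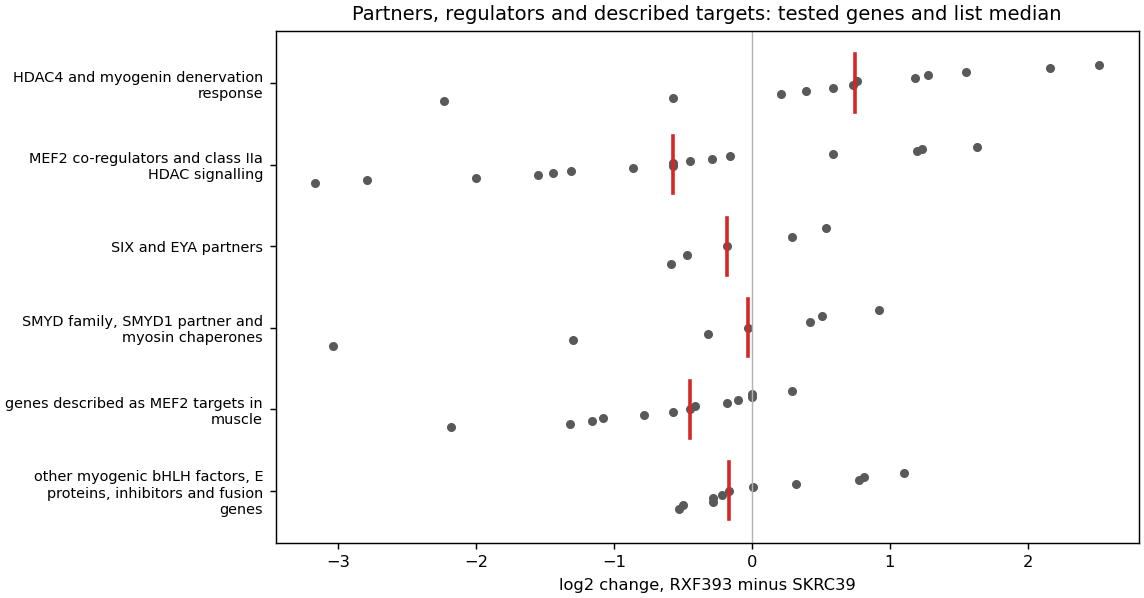
Log2 change of RXF393 against SKRC39 (horizontal axis) for the tested genes of 6 lists of partners, regulators and described targets. Each dot is a gene by its main probe, spread vertically only for legibility, and red bars are list medians, from -0.57 for MEF2 co-regulators to 0.75 for the denervation response. No gene shown passed the threshold.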

How the data were processed

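RNA from quadriceps muscle was read on 6 Illumina mouse arrays. One deposited table gives linear, non-normalized intensity; beside each value stands a detection p-value, per the file headers. Another gives intensity after quantile normalization by the authors (GenomeStudio, module 1.9.0), as their design text states. Probes were named from the platform annotation, 34885 of 45281 having 1 symbol.

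Intensities were background-corrected, given an offset of 16, quantile-normalized over the 6 arrays and log2-transformed (function neqc of limma 3.58.1 under R 4.3.3). Adding the offset understates changes near background. Probes detected (p below 0.05) on 2 or more arrays were tested by limma (lmFit, eBayes with an intensity trend) on the 4 arrays with concordant labels, with Benjamini-Hochberg adjustment over 17738 probes and a threshold of 0.05. A gene in a list is read by its brightest tested probe. Where an array of the dimmer group did not detect a probe, the fold is a bound ("at least"), set against the lowest detected signal.

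Named genes are every member with all its probes, the 5 genes nearest in profile, and from each list those past the threshold and the 3 with the smallest p. The members and the lists were chosen with earlier results of these data known. A further list of target genes and 1 partner gene are not reported here. Simulated data with known changes were drawn once from these arrays' means and spreads. The fit recovered most of the largest changes, but false calls in that draw were a larger share than the threshold allows. Array number, 2 per line, limits the precision of every value. Alternatives changed the background correction, offset, scaling, starting table, detection filter, variance model, threshold, arrays and pairing.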

Additional observations from a re-analysis of the deposited data

How the results depend on the processing

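The counts of probes past the threshold depended on the processing. Against 20 lower and 24 higher, with 1 member probe lower, another background correction (normexp) together with an offset of 50 gave 13 and 11 with 0 members, while an offset of 50 alone gave 25 and 27 with 1. An adjusted p under 0.1 gave 53 and 65 with 2 members, and starting from the values that the authors normalized gave 16 and 13 with 0 members. Median scaling gave 0 and 0 with 0 members (2288 probes at an unadjusted p under 0.05) and moved the median of all probes from 0.05 to -0.08. Without the intensity trend the counts were 0 and 0 with 0 members (2144 unadjusted). Probes detected on all 6 arrays gave 73 and 129 with 3 members. Grouping 6 arrays by characteristics gave 1232 and 1606 with 3 members, and by title 0 and 0 with 0 members (32 unadjusted). With the description's replicate number as a block, the counts were 290 and 271 with 3 members on 4 arrays, and 2619 and 2556 with 4 members, Myod1 among them, on 6. These numbers are shared but not said to mark a common origin, so the block is not used as a pairing. The description numbers differ from the title numbers used here. On the 4 arrays they set RXF393 replicate 2 with SKRC39 replicate 1, and RXF393 replicate 3 with SKRC39 replicate 2. With 2 arrays per line both pairs share 1 correlation of deviations, 0.514.

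Leaving out 1 array, which leaves 1 array in a group that is assumed to vary like the others, gave 18 to 488 probes lower, 7 to 246 higher and 1 to 3 members lower, all Mef2c. The lower and higher counts were 26 and 58 without SKRC39 replicate 1, 117 and 99 without SKRC39 replicate 2, 488 and 246 without RXF393 replicate 2, and 18 and 7 without RXF393 replicate 3. No member was higher in any alternative.

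Some members below the threshold turned direction. Median scaling gave Smyd1 -0.10. Grouping by title gave Six4 0.08 and Hdac4 0.23. Leaving out 1 array gave ranges of -1.88 to 0.10 for Six4, -1.57 to 0.34 for Hdac4 (0.09 without SKRC39 replicate 1), -0.40 to 0.87 for Smyd1, -0.16 to 1.41 for Myf6 and -0.14 to 1.34 (-0.06 without SKRC39 replicate 2) for the brighter Myog probe. Myod1 kept its direction, from -3.81 to -0.45. The causes were not tested.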
